A study of Rattus norvegicus with 8 samples.

Results

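The genes described here are 37 genes of striated muscle that build, regulate or fuel the sarcomere, among 22093 genes measured on 8 expression arrays of rat oesophagus. They were chosen by name, as genes whose products are known from sarcomeres and from the contraction and energy supply of skeletal muscle. The choice was made with earlier results of these data known, so the comparisons with all genes below are not an independent test. Each was measured by the probe set that carries its symbol, taking the probe set with the highest mean where a gene had more than 1. All 37 had a probe set, 1 of them (Mylpf) under the newer symbol Myl11 and 1 of them (Lmod2) with more than 1 probe set. They fall into thin filament genes (4), titin with the ubiquitin ligase Trim63 (2), fast-fibre genes (12), slow-fibre genes (5), Z-disc genes (6), genes of the muscle membrane and calcium release (2) and genes of energy and oxygen supply (6).

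All rats, in every group, had been injected under the skin with NMBA (N-nitrosomethylbenzylamine), a carcinogen for the oesophageal epithelium of rats, for 5 weeks with 3 injections per week of 0.35 mg/kg. They were killed at week 25. The groups were epithelial neoplasia and adjacent normal tissue from 2 rats on a riboflavin-deficient diet (R0N), and both tissues of 2 rats fed riboflavin at the normal level (RcN). As neoplasia and adjacent tissue came as a pair from each of the 4 animals, the tissue comparison was made within animals, and the diet comparison between 2 animals and 2 animals. All tissue was paraformaldehyde fixed and embedded in paraffin, no group was free of NMBA, and the labels do not give strain, sex, age or which wall layers each isolated piece held.

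The sarcomere is the contractile unit of striated muscle, in which myosin thick filaments pull actin thin filaments toward its centre under the control of calcium and the troponin complex, and Z-discs anchor the thin filaments at each end. Fast and slow fibres carry different isoforms of myosin, troponin and myosin-binding protein C. The outer muscle coat of the rat oesophagus is striated along its length, whereas smooth muscle lies in the muscularis mucosae and in vessels, so these genes mark a deeper wall layer than the squamous epithelium in which the neoplasia arises.

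The arrays were unlike in quality. The separation of 399 positive from 1153 negative control probe sets (area under the curve, where 0.5 means none) was 0.617 and 0.600 in R0N neoplasia, 0.659 and 0.598 in R0N adjacent normal tissue, 0.696 and 0.694 in RcN neoplasia, and 0.577 and 0.757 in RcN adjacent normal tissue. The array of RcN adjacent normal replicate 2 stood apart, with the highest separation and with 583 probe sets within 0.05 of the highest log2 value in the table, where the others had 1512 to 1772. The main counts and medians are given with and without its animal. No member came so high (highest value 18.21). Signal over background limits many of the members. The 95th percentile of the negative control probe sets was 10.64 to 12.11 on the 8 arrays, and 7 members (Acta1, Neb, Ttn, Tnnt3, Tnnc2, Mylpf and Mb) were above it on every array, as were 0.552% of all genes. Another 17 were above it on some arrays, and 13 on none, namely Lmod2, Trim63, Mybpc2, Myh7, Tnni1, Tnnc1, Pdlim3, Myoz1, Flnc, Ldb3, Cav3, Ryr1 and Ckmt2. Those 13 are not shown to be above background by this measure, and no linear fold is given for any member. On all 8 arrays 34 members were above the median of the negative controls (5.10 to 5.43), and Trim63, Myh7 and Tnnc1 were not. Values of 7 members (Ttn, Tnni2, Tnnt3, Tnnc2, Myl1, Mybpc1 and Actn2) were equal to within 0.0005 on at least 2 arrays, as were those of 6.15% of all genes. Squamous epithelial markers had median log2 levels of 9.74 to 14.37 on the 8 arrays, above the gene table's median of 5.11 on each.

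All 37 muscle genes had a lower mean level in neoplasia than in adjacent normal tissue, averaged over the 4 animals. The median difference of the members was -0.74 on the log2 scale, with a range of -1.53 to -0.03, whereas the median of all genes was 0.0015 and 10925 of 22093 genes were lower. With quantile normalization or with arrays scaled to a common spread, 36 members were lower and Tnnt1 turned to higher. No member was called, nor any gene, at a Benjamini-Hochberg adjusted p under 0.05 in limma (percent called 0), and each member's adjusted p was 1. At an unadjusted p under 0.05, 8 of 37 members were lower (21.6%), against 0.964% of all genes, and no member was higher, against 1.23%. Those 8 were Lmod2, Cav3, Pdlim3, Klhl41, Flnc, Myoz1, Tnni2 and Trim63. All but Flnc head the member list, which was made with earlier results known, so this share is not an independent test. Of the 8, only Klhl41 and Tnni2 were above the 95th percentile of the negative controls on any array. None of the 7 members above it on every array was among the 8, with unadjusted p from 0.0627 (Tnnt3) to 0.352 (Acta1). In whole tissue, fewer muscle cells and less of these transcripts per muscle cell cannot be told apart.

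The animals differed more than this mean shows. In R0N replicate 1 the median member was -1.21 and 33 of 37 were lower in neoplasia, and in RcN replicate 2 it was -1.80 and 36 were lower. In R0N replicate 2 the median was 0.22 and 12 of 37 were lower. In RcN replicate 1 it was -0.03 with 22 lower on the deposited values, but -1.21 with quantile normalization and -1.14 with scaled arrays. Without RcN replicate 2 the mean effect had a median of -0.35 and 29 of 37 members were lower, and without R0N replicate 1 the median was likewise -0.35, with 33 lower. Only 6 of 37 members (16.2%) were lower in all 4 animals, against 3.79% of all genes. They were Lmod2, Klhl41, Tnni2, Pdlim3, Myoz1 and Cav3. These 6 head the member list, which was made with earlier results known, so their share is not an independent test. No member was higher in all 4, against 4.1% of all genes. Without RcN replicate 2, 6 members were lower in the other 3 animals, against 11% of all genes, and without R0N replicate 1 again 6, against 8.59%.

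**Figure D1:**
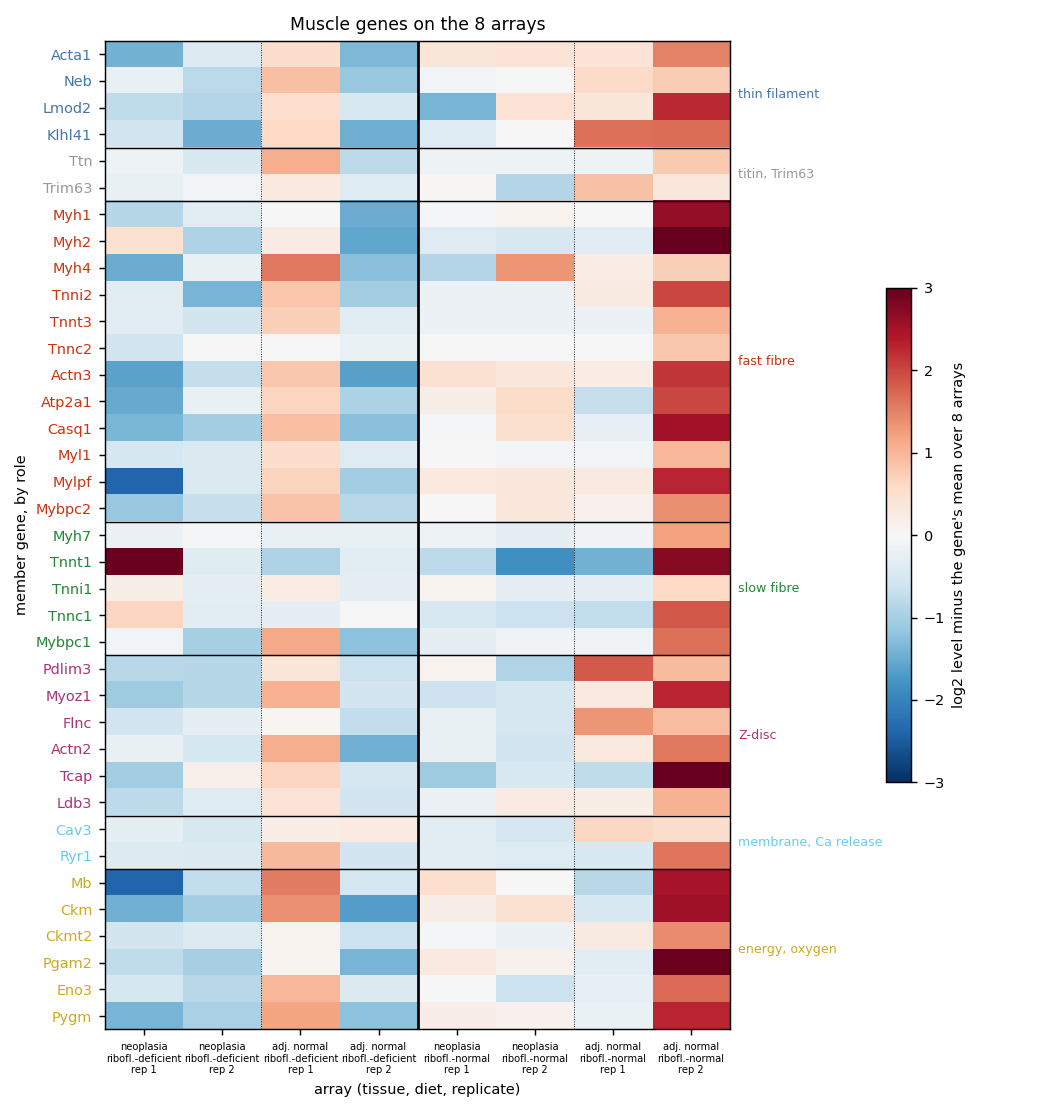
Log2 level of each of the 37 members (rows, grouped by role) on each of the 8 arrays (columns), minus the gene's mean over the 8 arrays; red is above and blue below that mean, and the colour scale stops at 3 and -3. The right-most column, RcN adjacent normal replicate 2, holds the highest value of 29 members. Among the slow-fibre rows in R0N neoplasia replicate 1, Tnnt1, Tnnc1 and Tnni1 are above their means, and Myh7 and Mybpc1 below.

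Promoters are shown for 4 of the genes that were lower in every animal (Lmod2, Klhl41, Cav3 and Myoz1), and beside them for Acta1, the skeletal actin gene, and Tnnt1, the member least like the others. Each line gives the 150 bases before the start of the gene, 5′ to 3′ on the gene's own strand, from RefSeq on build GRCr8, and capitals mark the motifs searched.
Lmod2 promoter, chr4:54032824-54032973, plus strand: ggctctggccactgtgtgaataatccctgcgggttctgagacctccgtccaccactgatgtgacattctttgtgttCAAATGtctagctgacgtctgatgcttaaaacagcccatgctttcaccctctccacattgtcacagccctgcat
Klhl41 promoter, chr3:74841968-74842117, plus strand: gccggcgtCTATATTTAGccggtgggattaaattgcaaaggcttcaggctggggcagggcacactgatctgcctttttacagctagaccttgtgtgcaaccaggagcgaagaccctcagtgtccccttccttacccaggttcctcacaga
Cav3 promoter, chr4:147137843-147137992, plus strand: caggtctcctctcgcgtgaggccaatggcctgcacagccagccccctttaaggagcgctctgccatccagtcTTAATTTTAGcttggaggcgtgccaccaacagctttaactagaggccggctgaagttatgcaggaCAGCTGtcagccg
Myoz1 promoter, chr15:3693463-3693612, plus strand: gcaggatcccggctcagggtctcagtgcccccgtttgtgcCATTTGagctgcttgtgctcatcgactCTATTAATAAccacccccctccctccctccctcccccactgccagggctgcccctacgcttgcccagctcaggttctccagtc
Acta1 promoter, chr19:68784195-68784344, minus strand: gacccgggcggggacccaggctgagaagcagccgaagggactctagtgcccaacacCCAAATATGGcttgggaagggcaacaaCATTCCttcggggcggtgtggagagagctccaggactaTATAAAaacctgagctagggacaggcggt
Tnnt1 promoter, chr1:78348885-78349034, plus strand: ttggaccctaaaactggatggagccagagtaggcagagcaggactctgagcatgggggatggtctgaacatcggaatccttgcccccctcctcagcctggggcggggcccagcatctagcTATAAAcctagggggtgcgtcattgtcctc
The motifs were the E-box (CANNTG), which myogenic factors such as MyoD bind, the A/T-rich site of MEF2 factors, the CArG box of serum response factor, the MCAT element (CATTCC) of TEAD factors, all on both strands, and TATAAA on the gene's strand. They were searched in the 250 bases before the start of the 33 members with a promoter entry, where no motif overlapped another, and in all 33469 promoters of the table. A member was counted once, with a motif in any of its promoter entries, whereas the percent of all is over single entries. An E-box was in 84.8% of the 33 members, against 65.5% of all entries, and an MEF2 site in 7 of 33 (21.2%), against 2.96%. The 7 with an MEF2 site were Cav3, Klhl41, Myh1, Myh4, Myl1, Myoz1 and Ttn. Myl1 has more than 1 entry, and not all of its entries hold the site. A CArG box was in 3 of 33 (9.09%; Acta1, Ldb3 and Myh4), against 1.50%, an MCAT element in 27.3%, against 12.1%, and TATAAA in 27.3%, against 8.06%. These matches describe the letters only. Pdlim3, Tcap, Tnnt3 and Tnnc1 are named without a promoter. Tnni2 was also lower in every animal, and its promoter is not printed. In the 250 bases searched it held 1 E-box and none of the other motifs.

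Among the thin filament genes, the regulators Lmod2 and Klhl41 were lower in neoplasia in every animal and skeletal actin was not. Lmod2, leiomodin, nucleates actin and helps thin filaments reach their length. Lmod2 had log2 levels of 6.99 and 6.87 in R0N neoplasia, against 8.24 and 7.26 in R0N adjacent normal tissue, and 6.35 and 8.18 in RcN neoplasia, against 8.12 and 9.98 in RcN adjacent normal tissue, each pair giving replicates 1 and 2. Both R0N neoplasia arrays lay below both R0N adjacent normal arrays, while in RcN the neoplasia array of replicate 2 was above the adjacent normal array of replicate 1. The differences were -1.25 and -0.39 in the R0N pairs and -1.77 and -1.80 in the RcN pairs, with a mean of -1.30 (SE 0.18, unadjusted p = 0.000934). Klhl41 is a Kelch protein that stabilises nebulin. It read 9.19 and 8.26 in R0N neoplasia, against 10.36 and 8.28 in R0N adjacent normal tissue, and 9.36 and 9.75 in RcN neoplasia, against 11.40 and 11.44 in RcN adjacent normal tissue. The tissues did not overlap in RcN, and in R0N replicate 2 they were level, with a difference of -0.02. Its mean difference was -1.23 (SE 0.22, unadjusted p = 0.00324).

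Acta1, skeletal alpha-actin, read 15.29 and 16.32 in R0N neoplasia, against 17.24 and 15.38 in R0N adjacent normal tissue, and 17.10 and 17.13 in RcN neoplasia, against 17.13 and 18.21 in RcN adjacent normal tissue. Neoplasia was lower in R0N replicate 1 and RcN replicate 2, higher in R0N replicate 2 and level in RcN replicate 1. The mean was -0.53 (SE 0.51, unadjusted p = 0.352), and without R0N replicate 1 it changed sign, to 0.19. Neb, nebulin, which runs along the thin filament, was lower in 3 of 4 animals, with differences of -1.12 and 0.34 in the R0N pairs and -0.67 and -0.76 in the RcN pairs and a mean of -0.55 (SE 0.26, unadjusted p = 0.0911).

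Ttn, titin, the elastic protein that runs from Z-disc to M-band, read 16.43 and 16.13 in R0N neoplasia, against 17.68 and 15.80 in R0N adjacent normal tissue, and 16.42 and 16.43 in RcN neoplasia, against 16.43 and 17.37 in RcN adjacent normal tissue. Its only array pair with a difference above 0 was R0N replicate 2, and in RcN replicate 1 the tissues were level. The mean was -0.46 (SE 0.32, unadjusted p = 0.205). Trim63, a ubiquitin ligase that marks sarcomere proteins for breakdown, read 5.97 and 6.11 in R0N neoplasia, against 6.50 and 5.80 in R0N adjacent normal tissue, and 6.24 and 5.32 in RcN neoplasia, against 7.07 and 6.52 in RcN adjacent normal tissue. In RcN both neoplasia arrays were below both adjacent normal arrays, and the mean over all animals was -0.56 (SE 0.18, unadjusted p = 0.0293), lower in 3 of 4 animals.

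The fast-fibre genes were lower in neoplasia in R0N replicate 1 (11 of 12, median -1.58) and RcN replicate 2 (11 of 12, median -1.64), and higher in R0N replicate 2 (9 of 12, median 0.41). In RcN replicate 1 their median was -0.0022 on the deposited values, but -1.22 with quantile normalization and -1.10 with scaled arrays. Their mean effect had a median of -0.65, all 12 lower, and it was -0.29 without RcN replicate 2 and -0.21 without R0N replicate 1, with 9 of 12 lower in each case. The slow-fibre genes had a median of 0.04 in R0N replicate 1, where 3 of 5 were higher in neoplasia. Those were Tnnt1 (3.85), Tnnc1 (0.93) and Myh7 (0.04). Weak signal limits this contrast, as Myh7, Tnni1 and Tnnc1 were above the 95th percentile of the negative controls on no array, and Tnnt1 on 2. Mybpc1, above it on 6 arrays, was lower by -1.24 in that animal, as most fast genes were. The slow-fibre genes had medians of 0.01 in R0N replicate 2, 0.27 in RcN replicate 1 and -1.74 in RcN replicate 2. Their mean effect of -0.34 turned to 0.19 without RcN replicate 2.

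The plot of fast and slow partners sets each fast isoform above its slow counterpart. Tnni2, fast troponin I, which holds the thin filament off in the absence of calcium, read 12.20 and 11.16 in R0N neoplasia, against 13.38 and 11.50 in R0N adjacent normal tissue, and 12.38 and 12.38 in RcN neoplasia, against 12.83 and 14.56 in RcN adjacent normal tissue. It was lower in neoplasia in all 4 animals, by the most in RcN replicate 2, with a mean of -1.03 (SE 0.33, unadjusted p = 0.0285). Its slow counterpart Tnni1 read 6.49 and 6.05 in R0N neoplasia, against 6.53 and 6.04 in R0N adjacent normal tissue, and 6.41 and 6.05 in RcN neoplasia, against 6.03 and 6.92 in RcN adjacent normal tissue. Those 8 values lie within a narrow range, and the mean difference of -0.13 (SE 0.23, unadjusted p = 0.608) became 0.19 without RcN replicate 2.

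Tnnt3, fast troponin T, which ties troponin to tropomyosin, read 15.78 and 15.56 in R0N neoplasia, against 16.83 and 15.82 in R0N adjacent normal tissue, and 15.95 and 15.95 in RcN neoplasia, against 15.95 and 17.16 in RcN adjacent normal tissue. In R0N both neoplasia arrays lay below both adjacent normal arrays, whereas in RcN 3 of the 4 arrays had the same value to 2 decimals. The mean was -0.63 (SE 0.26, unadjusted p = 0.0627). Tnnt1, slow troponin T, read 11.62 and 8.33 in R0N neoplasia, against 7.78 and 8.35 in R0N adjacent normal tissue, and 7.90 and 6.86 in RcN neoplasia, against 7.28 and 11.41 in RcN adjacent normal tissue. The neoplasia of R0N replicate 1 and the adjacent normal tissue of RcN replicate 2 were high and the other 6 arrays were low, so the pair differences ran from -4.55 to 3.85 around a mean of -0.03 (SE 1.06, unadjusted p = 0.981). That mean was 0.21 with either rescaling, 1.27 without RcN replicate 2 and 0.94 without R0N replicate 2.

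Tnnc2, fast troponin C, the calcium sensor, read 14.17 and 14.77 in R0N neoplasia, against 14.77 and 14.58 in R0N adjacent normal tissue, and 14.77 and 14.77 in RcN neoplasia, against 14.77 and 15.57 in RcN adjacent normal tissue. To 2 decimals, 5 of the 8 arrays shared a value, with RcN adjacent normal replicate 2 above it and R0N neoplasia replicate 1 and R0N adjacent normal replicate 2 below it. The mean was -0.30 (SE 0.21, unadjusted p = 0.218). Tnnc1, the slow and cardiac isoform, read 6.69 and 5.70 in R0N neoplasia, against 5.76 and 6.05 in R0N adjacent normal tissue, and 5.58 and 5.40 in RcN neoplasia, against 5.32 and 7.92 in RcN adjacent normal tissue. Its high arrays were the same as those of Tnnt1, and the mean of -0.42 (SE 0.51, unadjusted p = 0.451) became 0.28 without RcN replicate 2.

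Mybpc2, fast myosin-binding protein C, which tunes crossbridge cycling, read 8.04 and 8.49 in R0N neoplasia, against 10.03 and 8.33 in R0N adjacent normal tissue, and 9.15 and 9.49 in RcN neoplasia, against 9.30 and 10.56 in RcN adjacent normal tissue. It was lower in neoplasia in 3 of 4 animals, by the most in R0N replicate 1, with a mean of -0.77 (SE 0.40, unadjusted p = 0.114). The slow form Mybpc1 read 12.15 and 11.24 in R0N neoplasia, against 13.39 and 11.02 in R0N adjacent normal tissue, and 11.95 and 12.15 in RcN neoplasia, against 12.15 and 13.89 in RcN adjacent normal tissue. Unlike the slow troponins it was high in the adjacent normal tissue of R0N replicate 1, as most fast genes were, and its mean was -0.74 (SE 0.36, unadjusted p = 0.1).

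Myh2, the fast type IIa myosin heavy chain, read 11.95 and 10.57 in R0N neoplasia, against 11.76 and 9.95 in R0N adjacent normal tissue, and 11.10 and 11.02 in RcN neoplasia, against 11.15 and 14.48 in RcN adjacent normal tissue. A single array, RcN adjacent normal replicate 2, set the mean of -0.67 (SE 0.57, unadjusted p = 0.294), which was 0.18 without that animal. Myh7, the slow myosin heavy chain, read 4.99 and 5.11 in R0N neoplasia, against 4.95 and 4.95 in R0N adjacent normal tissue, and 5.01 and 4.89 in RcN neoplasia, against 5.07 and 6.38 in RcN adjacent normal tissue. It was near the table's median on 7 arrays, and its mean of -0.34 (SE 0.26, unadjusted p = 0.248) was 0.02 without RcN replicate 2. Myosin heavy chain genes are close in sequence, so probes may be shared between them.

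**Figure D2:**
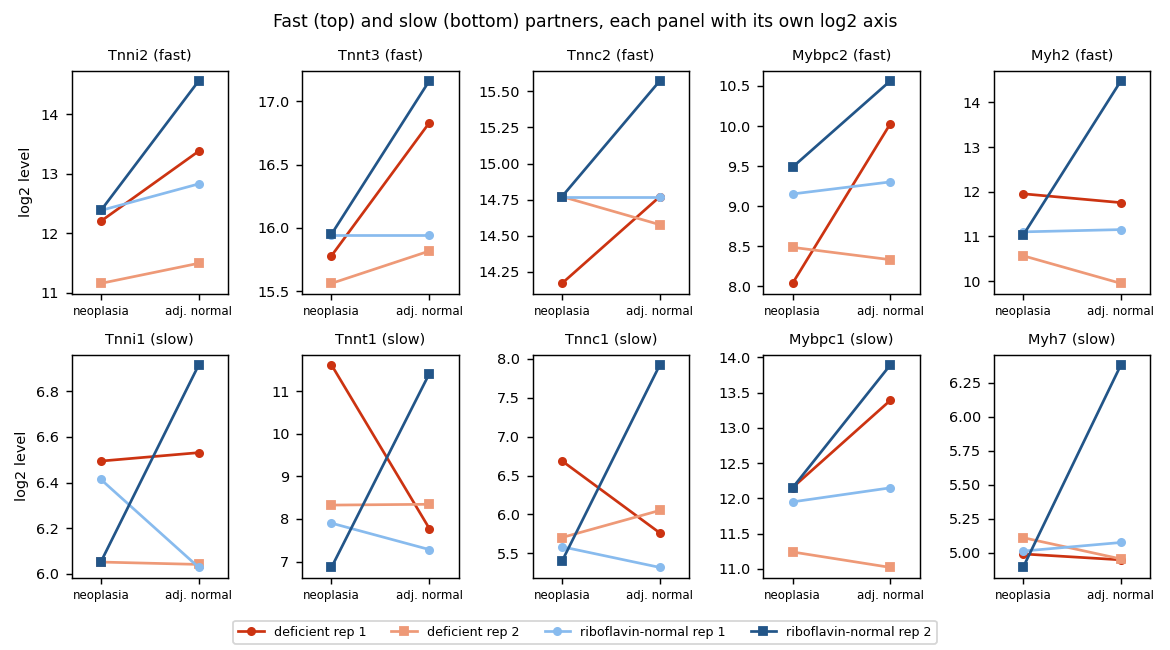
Log2 level in neoplasia (left of each panel) and adjacent normal tissue (right) of the 4 animals, a line per animal, for 5 fast-fibre genes (top) and their slow-fibre partners (bottom); each panel has its own log2 axis. Tnni2 is lower in neoplasia along all 4 lines, whereas the lines of Tnnt1 and Tnnc1 cross, with R0N replicate 1 higher in neoplasia and RcN replicate 2 lower.

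The other 7 fast genes, Myh1, Myh4, Actn3 (the actinin of fast Z-discs), Atp2a1 (the calcium pump of the sarcoplasmic reticulum), Casq1 (its calcium store) and the myosin light chains Myl1 and Mylpf, had mean differences between -0.50 (Atp2a1) and -1.11 (Mylpf). In R0N replicate 1 each of them was lower in neoplasia, from -0.86 for Myh1 to -3.09 for Myh4. Myh4, the type IIb myosin heavy chain, was the exception in RcN replicate 2, where it was 0.62 higher in neoplasia.

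The Z-disc genes were lower in neoplasia as a group in 3 animals, with 6 of 6 lower in R0N replicate 1, RcN replicate 1 and RcN replicate 2 (medians -1.25, -0.71 and -2.00) and 2 of 6 lower in R0N replicate 2 (median 0.32). Their mean effect had a median of -0.99 and was -0.63 without RcN replicate 2 and -0.56 without R0N replicate 1. Pdlim3, a PDZ and LIM domain protein that binds alpha-actinin, read 6.62 and 6.59 in R0N neoplasia, against 7.81 and 6.81 in R0N adjacent normal tissue, and 7.57 and 6.55 in RcN neoplasia, against 9.29 and 8.41 in RcN adjacent normal tissue. Within each diet both neoplasia arrays were below both adjacent normal arrays, and the mean was -1.25 (SE 0.19, unadjusted p = 0.00163).

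Flnc, filamin C, which crosslinks actin at the Z-disc and membrane, read 6.40 and 6.69 in R0N neoplasia, against 7.02 and 6.23 in R0N adjacent normal tissue, and 6.75 and 6.46 in RcN neoplasia, against 8.30 and 7.88 in RcN adjacent normal tissue. Both RcN adjacent normal arrays were above the other 6, and the mean was -0.78 (SE 0.21, unadjusted p = 0.0141). Myoz1, myozenin, which ties calcineurin to the Z-disc of fast fibres, was singled out after its values were seen, as the member with the largest mean difference. It read 6.69 and 6.91 in R0N neoplasia, against 8.81 and 7.19 in R0N adjacent normal tissue, and 7.14 and 7.26 in RcN neoplasia, against 8.06 and 10.05 in RcN adjacent normal tissue. It was lower in all 4 animals, with no overlap within either diet, and its mean was -1.53 (SE 0.44, unadjusted p = 0.0199). Actn2, Tcap (telethonin, which caps titin) and Ldb3 had means of -0.76, -1.19 and -0.55, each lower in 3 of 4 animals.

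Cav3, muscle caveolin of the sarcolemma and T-tubules, had the most even difference of the members. It read 7.67 and 7.48 in R0N neoplasia, against 8.15 and 8.21 in R0N adjacent normal tissue, and 7.62 and 7.45 in RcN neoplasia, against 8.57 and 8.49 in RcN adjacent normal tissue. All 4 neoplasia arrays were below all 4 adjacent normal arrays, and the differences were -0.48 and -0.73 in the R0N pairs and -0.95 and -1.04 in the RcN pairs. The mean was -0.80 (SE 0.11, unadjusted p = 0.00121). Ryr1, the calcium release channel, read 7.32 and 7.31 in R0N neoplasia, against 8.71 and 7.16 in R0N adjacent normal tissue, and 7.42 and 7.35 in RcN neoplasia, against 7.28 and 9.34 in RcN adjacent normal tissue. Neoplasia was lower in R0N replicate 1 and RcN replicate 2 and 0.14 higher in each of the other animals, with a mean of -0.77 (SE 0.44, unadjusted p = 0.144).

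The genes of energy and oxygen supply were lower in neoplasia in R0N replicate 1 (6 of 6, median -2.05) and RcN replicate 2 (6 of 6, median -2.25). They were higher in R0N replicate 2 (4 of 6, median 0.26) and in RcN replicate 1 (5 of 6, median 0.50), the second of which turned to -0.56 with quantile normalization and -0.53 with scaled arrays. Ckm, cytosolic muscle creatine kinase, which buffers ATP, read 11.47 and 11.90 in R0N neoplasia, against 14.29 and 11.27 in R0N adjacent normal tissue, and 13.12 and 13.37 in RcN neoplasia, against 12.46 and 15.47 in RcN adjacent normal tissue. The high arrays were the adjacent normal tissues of R0N replicate 1 and RcN replicate 2, and the mean was -0.91 (SE 0.73, unadjusted p = 0.27). Ckmt2, the mitochondrial creatine kinase of sarcomeric muscle, read 5.91 and 6.05 in R0N neoplasia, against 6.57 and 5.79 in R0N adjacent normal tissue, and 6.41 and 6.28 in RcN neoplasia, against 6.72 and 7.87 in RcN adjacent normal tissue. Its tissues did not overlap in RcN, and the mean was -0.58 (SE 0.28, unadjusted p = 0.0948). Eno3, muscle enolase, read 9.15 and 8.84 in R0N neoplasia, against 10.65 and 9.24 in R0N adjacent normal tissue, and 9.65 and 9.01 in RcN neoplasia, against 9.42 and 11.36 in RcN adjacent normal tissue. It was lower in 3 of 4 animals, with a mean of -1.01 (SE 0.47, unadjusted p = 0.0882). Mb (myoglobin), Pgam2 and Pygm had means of -1.31, -0.67 and -1.02, and Mb had the lowest single difference of this role, -3.90 in R0N replicate 1.

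**Figure D3:**
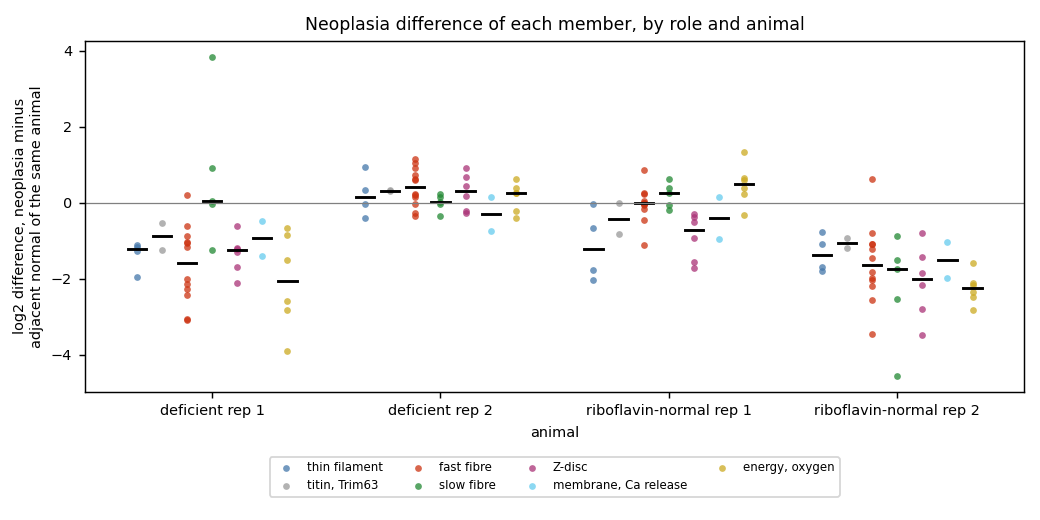
Log2 difference, neoplasia minus adjacent normal tissue of the same animal, for each member (points, coloured by role) in each of the 4 animals; black bars are the medians of a role. The points of R0N replicate 1 and RcN replicate 2 lie mostly below 0, those of R0N replicate 2 mostly above it, and the slow-fibre medians are close to 0 in 2 of the 3 animals other than RcN replicate 2.

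**Figure D4:**
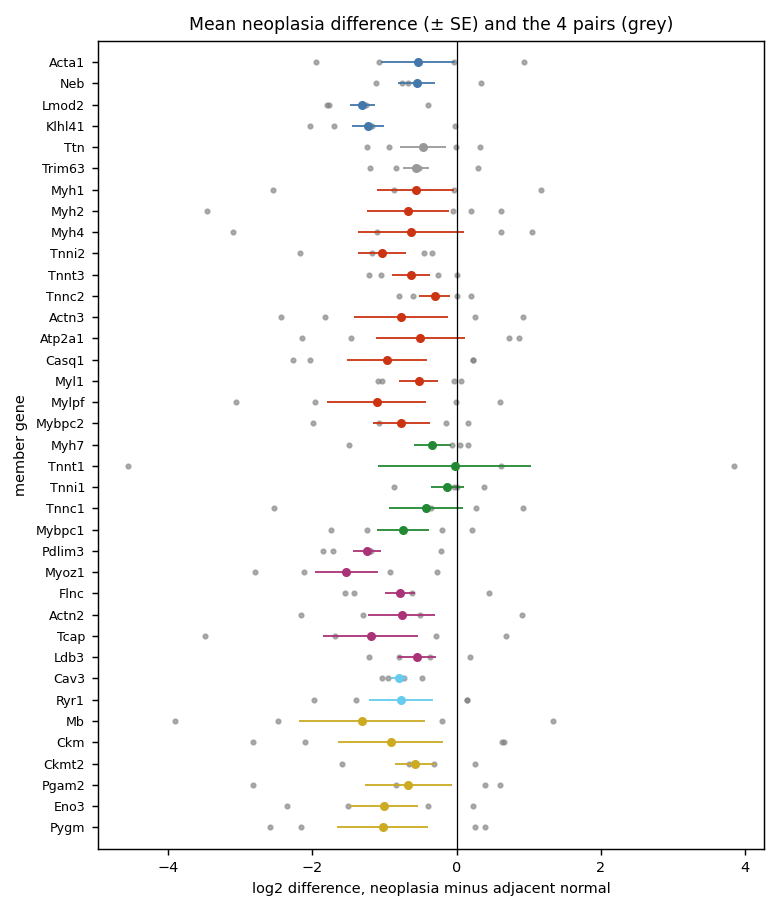
Mean log2 difference, neoplasia minus adjacent normal tissue, of each member (coloured points, with bars of 1 SE from limma) and the differences of the 4 animals (grey points). All coloured points are below 0, and Lmod2, Klhl41, Pdlim3, Cav3 and Flnc have short bars, whereas Tnnt1 has the longest.

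Within each diet, the tissues differed as follows. On the R0N diet the neoplasia difference had a median of -0.54 over the members, 32 of 37 were lower and no gene was called (percent called 0). The R0N median was -0.27 with quantile normalization and -0.29 with scaled arrays, with 25 of 37 lower in each case. At an unadjusted p under 0.05, 2 members were lower, Cav3 at -0.60 (SE 0.16, unadjusted p = 0.0154) and Lmod2 at -0.82 (SE 0.25, unadjusted p = 0.0238), against 1.03% of all genes, and none was higher, against 0.892%. Both neoplasia arrays lay below both adjacent normal arrays for 8 members (21.6%), against 14.1% of all genes. On the RcN diet the median was -0.95, all 37 were lower, none was called (percent called 0), and 8 were lower at an unadjusted p under 0.05, against 1.09% of all genes, with none higher, against 2.56%. The 8 were the same 8 as in the mean over animals, and the largest difference among them was that of Klhl41, -1.86 (SE 0.32, unadjusted p = 0.00242). Both neoplasia arrays lay below both adjacent normal arrays for 12 members (32.4%), against 10.3% of all genes. The RcN median was -1.15 with quantile normalization and -1.11 with scaled arrays, with all 37 lower in each case. Without RcN replicate 2 the RcN median was -0.03 and 22 of 37 members were lower, and without R0N replicate 1 the R0N median was 0.22 and 12 were lower.

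The test of the difference between the diets, R0N minus RcN, called no gene (percent called 0) and had a median of 0.32 over the members, 27 of them above 0. At an unadjusted p under 0.05, no member was below 0, against 2.43% of all genes, and 4 were above 0, against 1.01%, namely Flnc at 1.40 (SE 0.41, unadjusted p = 0.0211), Klhl41 at 1.27 (SE 0.45, unadjusted p = 0.0384), Pdlim3 at 1.08 (SE 0.38, unadjusted p = 0.0401) and Lmod2 at 0.96 (SE 0.35, unadjusted p = 0.0441). For these genes the neoplasia difference was further below 0 on the RcN diet. Tnnt1 had the largest value, 3.88 (SE 2.12, unadjusted p = 0.13). The median was -0.27 without RcN replicate 2 and -0.26 without R0N replicate 2, and 0.80 with quantile normalization and 1.03 with scaled arrays. By role it was -0.04 for fast-fibre, 0.88 for slow-fibre and 1.11 for Z-disc genes on the deposited values, and the fast-fibre value turned to 0.70 with quantile normalization and 0.60 with scaled arrays. Without RcN replicate 2 the 3 values were -0.63, 0.02 and 0.09, and without R0N replicate 2 they were -0.95, 0.82 and 0.12.

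Between diets, the muscle genes were lower in the adjacent normal tissue of R0N rats. All 37 members had a lower mean there than in RcN adjacent normal tissue, with a median difference of -1.06 against 0.02 over all genes. No gene was called (percent called 0). At an unadjusted p under 0.05, 5 members were lower, against 1.05% of all genes, and none was higher, against 1.32%. They were Flnc at -1.47 (SE 0.30, unadjusted p = 0.0025), Klhl41 at -2.10 (SE 0.66, unadjusted p = 0.0186), Pdlim3 at -1.53 (SE 0.49, unadjusted p = 0.0189), Ckmt2 at -1.12 (SE 0.41, unadjusted p = 0.034) and Cav3 at -0.35 (SE 0.14, unadjusted p = 0.0421). Both R0N arrays lay below both RcN arrays for 7 members (18.9%; these 5, Trim63 and Myh7), against 8.78% of all genes. With quantile normalization and with scaled arrays this count was 13 each time (35.1%), against 12.6% and 10.5% of all genes, and Cav3 and Trim63 were not among them in either. The median was -0.12 with 22 of 37 lower without RcN replicate 2, and -0.30 with 23 lower without R0N replicate 2. Diet cannot be told apart from animal here.

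In neoplasia the median diet difference was -0.40 on the deposited values, 28 of 37 lower in R0N, but 0.22 with quantile normalization and 0.18 with scaled arrays. No gene was called (percent called 0), and no member passed an unadjusted p under 0.05, against 3.31% of all genes lower and 1.77% higher. Both R0N neoplasia arrays lay below both RcN neoplasia arrays for 20 members (54.1%), against 23.2% of all genes, and above them for Tnnt1 and Tnnc1 (5.41%), against 26% of all genes. With quantile normalization these counts were 5 below (13.5%, against 22.6% of all genes) and 12 above (32.4%, against 19.8%). With scaled arrays they were 7 below (18.9%, against 20.3% of all genes) and 12 above (32.4%, against 22.7%). The genes below under all 3 treatments of the arrays were Casq1, Ckm, Ckmt2, Pgam2 and Pygm.

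Adjacent normal samples differed from each other in muscle genes more than neoplasia samples did. The SD over 4 arrays was larger in adjacent normal tissue for 35 of 37 members, with a median of 0.49 in neoplasia and 1.18 in adjacent normal tissue, and it was larger for 63.5% of all genes. The count was 30 with quantile normalization, against 59.6% of all genes, and 32 with scaled arrays, against 60.1%. Without RcN replicate 2 it was 31, against 52.0% of all genes, with medians of 0.48 in neoplasia and 0.86 in adjacent normal tissue. RcN adjacent normal replicate 2 had the highest value of the 8 arrays for 29 members (78.4%), against 17.8% of all genes. Under the 2 rescalings it did so for 17 and 15 members, for which the share of all genes is not given. On the deposited values, the median member of that array was 1.65 above the gene's mean over the arrays. R0N adjacent normal replicate 1 was next, at 0.64. RcN adjacent normal replicate 1 was at -0.01 and R0N adjacent normal replicate 2 at -0.73, the lowest of all arrays, while the neoplasia arrays lay between -0.57 and -0.09.

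The members followed each other across the arrays. The correlation of a member with the median of the other members over the 8 arrays was at least 0.8 for 27 of 37 (73.0%), with a median of 0.87, against 5.25% of the other genes. Without RcN replicate 2, over 6 arrays, 18 members reached 0.8, with a median of 0.80, against 4.40% of the other genes, and 14 did with quantile normalization and 11 with scaled arrays, against 0.952% and 0.626%. It was highest for Myl1 (0.98) and lowest for Tnnt1 (0.28), Trim63 (0.43), Cav3 (0.50) and Pdlim3 (0.57). Of the genes with the smallest p, Cav3, Pdlim3 and Flnc (0.63) were thus among those that followed the rest least. The points share arrays of unequal quality, and these correlations are given as a description.

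Most other muscle genes were lower in neoplasia as well. Of 59 other genes of striated muscle, 54 were measured, and 51 of them (94.4%) had a lower mean in neoplasia, against 49.5% of all genes, with a median of -0.45. None of the 54 was called. At an unadjusted p under 0.05, 9 (16.7%) were lower, against 0.964% of all genes, and 11 (20.4%) were lower in all 4 animals, against 3.79%. Those with the smallest p were Myoz2, a myozenin of slow and cardiac muscle, at -0.76 (SE 0.17), Capn3, a muscle calpain, at -0.59 (SE 0.15), Jph1, which joins T-tubules to the sarcoplasmic reticulum, at -0.47 (SE 0.13), and Smpx at -0.53 (SE 0.15).

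Markers of other cell types and measures of array quality also differed between these arrays. The 12 smooth muscle genes had median levels of 6.21 to 7.02, highest on RcN adjacent normal replicate 2, and median differences of -0.21, 0.02, 0.08 and -0.86 in R0N replicates 1 and 2 and RcN replicates 1 and 2. The 9 fibroblast genes had a median level of 7.84 on RcN adjacent normal replicate 2, where the remaining arrays had 6.08 to 6.58, and all 9 were lower in neoplasia in that animal. The 7 adipocyte genes were all higher in the neoplasia of R0N replicate 1, with a median difference of 1.69. The 11 squamous epithelial genes were all higher in the neoplasia of RcN replicate 1, with a median of 3.36, and 10 of 11 were lower in that of R0N replicate 1. The 26 ribosomal protein genes had median differences of -0.56, -0.15, 1.27 and -0.50 in the same order of animals, and their median level was highest on RcN adjacent normal replicate 2 (10.52) and lowest on RcN adjacent normal replicate 1 (8.50), as was the control separation. The part of these markers and of array quality in the muscle differences was not tested. The 8 cardiac genes stayed at median levels of 4.72 to 5.12 on all arrays, near the table's median. Markers of satellite cells and regenerating muscle (8 genes) had median differences between -0.12 and -0.02 in the 4 animals. That median hides Des and Myh8, the genes of this list with high levels. In the same order of animals, Des differed by -1.54, 0.25, 0.70 and -2.02, and Myh8 by -1.81, 0.56, 0.00 and -0.71. The other genes had levels of only 4.18 (Myf5) to 6.36 (Myh3). Myh3, Myh8, Des, Myod1 and Myog are also among the other striated muscle genes above.

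**Figure D5:**
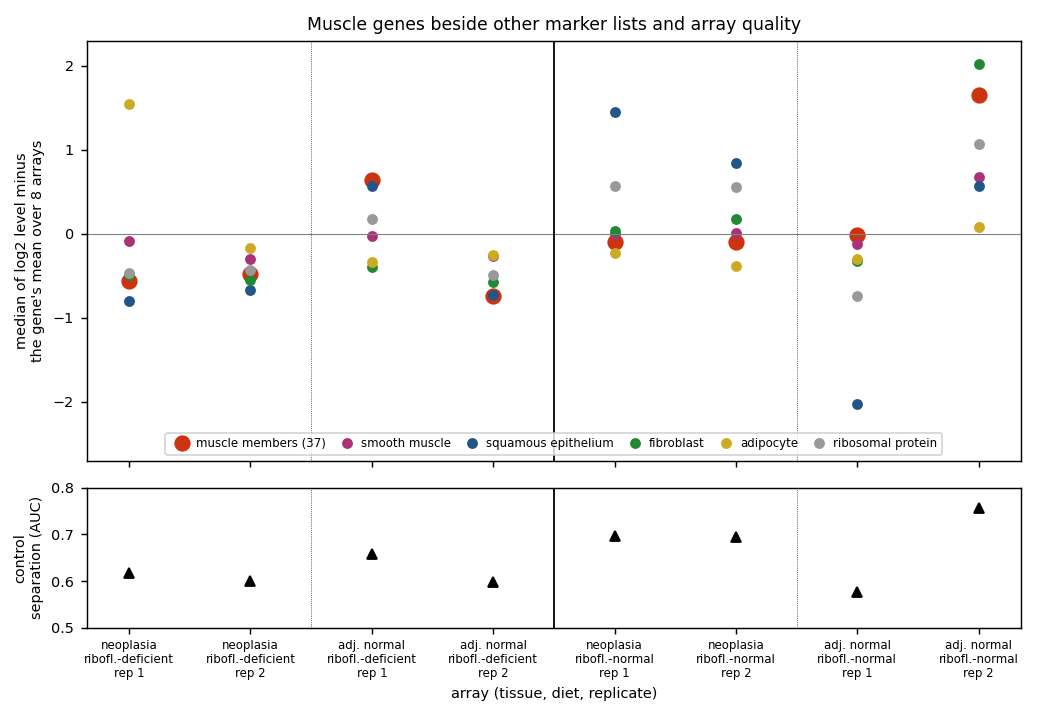
Top, median of the log2 level minus the gene's mean over 8 arrays, for the 37 muscle members (large red points) and 5 other marker lists on each array; bottom, separation of positive from negative control probe sets (area under the curve). Muscle, fibroblast and ribosomal medians and the control separation are all highest on RcN adjacent normal replicate 2.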

How the data were processed

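The authors deposited log2 values for 70580 probe sets on 8 arrays, for which the submitters' processing notes name RMA, robust multi-array average, and Affymetrix Expression Console. Their versions are not given in the sources used here, nor is the annotation build. Array depth cannot be counted, and the number of arrays limits the precision.

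Groups came from the sample titles, and animals from the shared code in the descriptions. A single symbol was paired with 23446 probe sets, and the highest mean probe set per gene gave 22093 genes. Comparisons used limma 3.58.1 in R 4.3.3 (lmFit, eBayes), with the animal as a block and 1 tissue effect for each diet. Diet comparisons used group means. The Benjamini-Hochberg adjustment ran over all genes, with calls at an adjusted p under 0.05. The fit was checked on simulated data with normally distributed noise and arrays of equal quality. That check does not cover the unequal quality or the equal values of these arrays. Deviations of the 2 tissues of an animal from their group means correlated at 0.16 in R0N and 0.19 in RcN over all genes. Over the members the correlations were -0.36 in R0N and 0.04 in RcN.

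Genes named with values on every array are, per role, the 2 with the smallest p, the fast and slow partners, the first 4 listed genes, Acta1 and Ckm. The members and lists were chosen with earlier results of these data known. The first 4 listed genes, Lmod2, Pdlim3, Klhl41 and Cav3, had the smallest unadjusted p of the members for the mean neoplasia effect. Listed next were Myoz1, Tnni2 and Trim63, which also had an unadjusted p under 0.05. Together with Flnc, these are the 8 members under 0.05. The 6 members lower in all 4 animals are the first 6 listed. Alternatives were quantile normalization, arrays scaled to a common spread, the mean of probe sets, only the upper part of genes by mean level, no animal term, and each animal left out.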

Additional observations from a re-analysis of the deposited data

Results flagged for a closer look

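Myh2, the fast type IIa myosin heavy chain, had a neoplasia difference of -3.46 in RcN replicate 2 that lay far from the differences of the other 3 animals, which ran from -0.05 to 0.62. Myh7, the slow myosin heavy chain, had a difference of -1.49 in the same animal, against -0.06 to 0.16 in the others. Both rest on the adjacent normal array of that animal, which held the highest level of each gene. Chance marks about 1 in 20 sets of 4 values in this way, and 5.78% of all genes were so marked, against 2 of the 22 members examined.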

How the results depend on the processing

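No gene and no member was called in any comparison under any alternative run. The median member difference of the mean neoplasia effect stayed between -0.74 and -0.66 under quantile normalization, scaled arrays, the mean of probe sets and a filter on low genes, and ran from -1.16 to -0.35 when an animal was left out. Leaving out an animal gave medians of -1.80 to -0.03 on the RcN diet, -1.21 to 0.22 on the R0N diet, -0.27 to 1.19 for the difference between diets, -1.76 to -0.12 for diet in adjacent normal tissue and -0.45 to -0.36 for diet in neoplasia. The last was -0.40 on the deposited values, 0.22 with quantile normalization and 0.18 with scaled arrays. The count of members lower in every animal ran from 6 to 19 (16.2% to 51.4%) when an animal was left out, against 8.08% to 11% of all genes, and was 9 (24.3%) under both rescalings, against 5.02% with quantile normalization and 4.34% with scaled arrays, with all 6 original genes among them.

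With no replicate block (no animal term), the median mean effect was unchanged at -0.74. The members lower at an unadjusted p under 0.05 were then 5 instead of 8. Their count was 16 with quantile normalization and 12 with scaled arrays. The share of all genes under these settings is not given, so these counts cannot be read against it. When an animal is left out, the lone animal left in its diet is assumed to vary like the others.

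Members that changed sign in the mean effect, with their ranges over left-out animals, were Acta1 (-1.25 to 0.19), Myh1 (-1.20 to 0.06), Myh2 (-1.53 to 0.18), Myh4 (-1.67 to 0.40), Actn3 (-1.61 to 0.06), Atp2a1 (-1.22 to 0.22), Pgam2 (-1.52 to 0.19), Myh7 (-0.70 to 0.02), Tnni1 (-0.44 to 0.19), Tnnc1 (-1.12 to 0.28) and Tnnt1 (-1.32 to 1.27, and 0.21 under both rescalings). The cause was not tested. Myh7, Tnnc1 and Trim63, not above the median of the negative controls on every array, are those most limited by weak signal. The alternatives for the spread, the correlations and the diet groups without overlap were chosen after seeing the data.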
